A study of Mus musculus with 6 samples.

Results

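The genes described here are 50 genes of the cell cycle and of DNA replication, listed by symbol as well-known members of the machinery, with earlier results of these data known. Of these, 49 were among the 11736 genes in the tables of every library, and Cdkn2c, which encodes an INK4 inhibitor of CDK4 and CDK6, is not analysed here. The total RNA came from somatic cells of the gonads of XY C57BL/6 mouse embryos at E11.5. Cdyl-Het and Cdyl-KO had 3 libraries each, the first group heterozygous and the second homozygous for a deficiency of Cdyl, a chromodomain protein that takes part in transcriptional repression. All 6 samples carried Nr5a1-hCD271, which puts a human surface marker on cells with Nr5a1 activity, and the cells were isolated with magnetic beads against that marker. No wild-type sample was analysed here, so every difference is homozygous against heterozygous. The sources used here give neither the form of the Cdyl mutation nor the makeup of each sample (single embryo, pool or litter). For that reason a p-value measures the spread among these samples only, and this spread may be technical.

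In G1, D-type cyclins with CDK4 and CDK6, and then E-type cyclins with CDK2, phosphorylate the pocket proteins and release E2F transcription factors, which switch on genes for DNA synthesis. CDC6 and CDT1 load the MCM helicase on origins, geminin blocks CDT1 until the next G1, and A- and B-type cyclins with CDK1 carry the cell into mitosis, whose genes are held silent by the DREAM complex in quiescence and early G1 and switched on by MuvB with B-MYB and FOXM1. At E11.5 the somatic cells of the XY gonad are dividing and supporting-cell fate is being set, and proliferation of the gonad surface layer is known as part of early testis development.

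Both kinds of transcriptional control have known DNA words, so promoter sequences are shown for a fallen gene, for genes of replication and for genes of mitosis. Windows from 250 bases before to 50 bases after the start site came from RefSeq on GRCm38.p6, the build of mm10, and 38 of the 49 genes had one. Capitals mark E2F words (TTTCGCGC, TTTGGCGC, TTCCCGCC, TTTCCCGC or TTGGCGCC) and CHR words (TTTGAA or TTCGAA, the cell cycle homology region), searched on both strands with overlapping matches merged. Each sequence runs 5′ to 3′ in the direction of its gene.
Cdc25a (chr9:109875329-109875628, + strand): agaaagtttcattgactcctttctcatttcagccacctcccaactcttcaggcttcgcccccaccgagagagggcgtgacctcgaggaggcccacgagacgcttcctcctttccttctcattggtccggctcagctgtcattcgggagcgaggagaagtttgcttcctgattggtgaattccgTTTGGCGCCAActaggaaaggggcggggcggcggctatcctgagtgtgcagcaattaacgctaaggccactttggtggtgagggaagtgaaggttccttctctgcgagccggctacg
Cdc6 (chr11:98907901-98908200, + strand): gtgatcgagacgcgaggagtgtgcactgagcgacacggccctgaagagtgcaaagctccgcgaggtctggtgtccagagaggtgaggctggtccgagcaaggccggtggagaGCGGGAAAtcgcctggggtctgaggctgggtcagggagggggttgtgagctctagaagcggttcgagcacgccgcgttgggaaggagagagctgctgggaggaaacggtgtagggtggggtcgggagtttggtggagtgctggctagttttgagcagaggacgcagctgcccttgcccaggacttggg
Mcm3 (chr1:20820263-20820562, - strand): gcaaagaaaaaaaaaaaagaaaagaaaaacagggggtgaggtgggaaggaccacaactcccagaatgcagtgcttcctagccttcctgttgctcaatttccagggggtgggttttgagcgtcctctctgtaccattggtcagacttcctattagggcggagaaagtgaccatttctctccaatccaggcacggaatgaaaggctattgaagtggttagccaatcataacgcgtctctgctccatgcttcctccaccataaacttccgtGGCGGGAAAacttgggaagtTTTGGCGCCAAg
Cdk1 (chr10:69352863-69353162, - strand): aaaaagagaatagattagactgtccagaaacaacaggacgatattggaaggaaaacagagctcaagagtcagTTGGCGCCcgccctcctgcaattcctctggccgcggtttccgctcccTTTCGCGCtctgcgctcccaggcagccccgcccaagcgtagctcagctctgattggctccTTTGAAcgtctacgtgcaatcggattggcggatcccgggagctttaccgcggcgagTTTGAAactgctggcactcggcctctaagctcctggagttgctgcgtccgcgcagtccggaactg
Ccnb2 (chr9:70421505-70421804, - strand): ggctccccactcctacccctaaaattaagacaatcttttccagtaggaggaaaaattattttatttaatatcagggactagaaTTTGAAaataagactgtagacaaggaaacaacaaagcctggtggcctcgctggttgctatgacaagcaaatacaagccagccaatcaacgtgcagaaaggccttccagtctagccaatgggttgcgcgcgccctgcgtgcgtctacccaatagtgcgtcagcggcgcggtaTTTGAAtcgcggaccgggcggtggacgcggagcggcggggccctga
Plk1 (chr7:122159185-122159484, + strand): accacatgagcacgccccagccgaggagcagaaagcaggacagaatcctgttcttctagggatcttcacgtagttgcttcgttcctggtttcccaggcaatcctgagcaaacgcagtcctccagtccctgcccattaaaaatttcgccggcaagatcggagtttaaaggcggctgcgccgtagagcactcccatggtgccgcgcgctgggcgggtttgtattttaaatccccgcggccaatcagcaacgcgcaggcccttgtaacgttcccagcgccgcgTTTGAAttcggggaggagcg
The E2F match of Cdc25a began at base -67 relative to the RefSeq start site and that of Cdc6 at -138. The whole Cdc6 window lies downstream of the gene's first base in GENCODE M21 (98907801), so its match is upstream of the RefSeq start only. The windows of E2f1, Mcm7, Chek1 and Cdk6, not printed, also lie inside their GENCODE genes. So do the second windows of E2f2, E2f3, Cdkn1a and Ccnd3. Mcm3 had matches at 18 and 38 bases after the start. Ccnb2 had CHR words at -167 and 4, and Plk1 had its CHR word at 30. The Cdk1 window held both kinds, with E2F words at -178 and -131 and CHR words at -71 and -15.

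A gene was counted if any of its windows held the word, since some genes had more than 1 window (43 windows for the 38 genes). E2F words were found for 15 of the 38 genes (39.5%), against 786 of 8593 genes with a window in all (9.15%). CHR words were also found for 15 (39.5%), against 15.5% of all genes, and CCAAT, the word bound by NF-Y, was found for 26 (68.4%), against 43.0%. By role, an E2F word was found for 4 of 5 MCM genes, 3 of 6 licensing, clamp and nucleotide genes and 1 of 5 G1 cyclin and CDK genes. It was found for 2 of 3 S, G2 and M cyclin and CDK genes and 0 of 10 mitotic genes. Transcription factor and pocket genes had it in 3 of 5, and inhibitor, checkpoint and CDC25 genes in 2 of 4. A CHR word was found for 8 of 10 mitotic genes, 2 of 3 S, G2 and M genes and 2 of 5 MCM genes. It was also found for 2 of 5 transcription factor and pocket genes and 1 of 4 inhibitor, checkpoint and CDC25 genes. The licensing, clamp and nucleotide genes had it in 0 of 6 and the G1 genes in 0 of 5. The difference between roles was not tested. A match is a description of letters and not a site of binding.

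**Figure D1:**
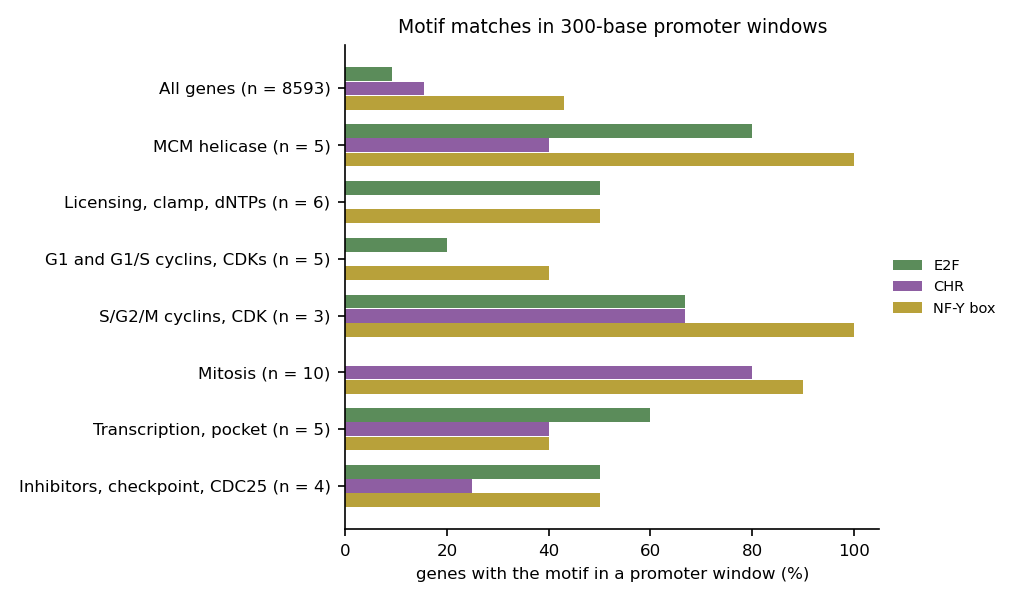
Percent of genes (horizontal axis) whose promoter window holds an E2F word, a CHR word or the NF-Y box, for all genes with a window and for the genes of each role (rows). CHR words are most frequent in the mitotic genes (8 of 10 genes) and E2F words in the MCM genes (4 of 5).

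Values were deposited as normalised levels per gene, taken as RPKM (reads per kilobase and per M reads), and were scaled between libraries. They are given as scaled RPKM, and differences as Cdyl-KO minus Cdyl-Het on the log2(scaled RPKM + 1) scale. That scale shrinks the change of genes with low values. Steps between low values implied a depth of 34.58 to 45.19 M reads in a library. The rarest of the 49 genes, E2f2, rested on about 234 reads in its lowest library and the most abundant, Mki67, on up to about 23194. All 49 had deposited group means above the lowest level admitted to the tables in both groups, and 39 lay above the median level of all genes. Log2 values of all genes correlated at 0.976 to 0.983 between libraries of a group and at 0.962 to 0.977 between groups. Cdyl itself averaged 8.02 ± 0.230 in Cdyl-Het and 6.92 ± 0.153 in Cdyl-KO (SD, n = 3), with a difference of -0.19 that did not pass the threshold (limma adjusted p = 0.0702). In whole samples such as these, fewer cells of a type and less RNA per cell cannot be told apart.

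Most of the cell cycle set differed little between the groups. Of the 49 genes, 2 fell in Cdyl-KO (4.08%), Ccnd2 and Cdc25a, and 0 rose, at a limma adjusted p under 0.05 over all 11736 genes. Over all genes 332 fell (2.83%), 548 rose (4.67%) and 880 passed in either direction (7.50%), so the count among the 49 was close to the background. At an unadjusted p under 0.05, 16 differed (32.7%, against 25.4% of all genes), 12 of them lower (24.5%, against 11.2%) and 4 higher. The 3 Cdyl-KO values lay below the 3 Cdyl-Het values in 14 genes (28.6%, against 14.5% of all genes) and above them in 6 (12.2%, against 17.1%), together 40.8% against 31.6%. Log2 differences ran from -0.37 to 0.43, with a median of -0.04 (0.00 over all genes), and 31 of 49 were below 0 (63.3%, against 50.2%).

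The count of fallen genes depended on the scaling. On the deposited values without scaling, 16 of the 49 fell (32.7%) and 0 rose, while the same values gave 1558 falls (13.3%) and 305 rises (2.60%) among all genes. Without scaling the median difference was -0.16 in the 49 genes and -0.12 in all genes, and 77.1% of all genes were below 0, so both shifted together. Scaling moved the median of all genes by that amount, and the differences below are relative to it. Across the main scaling and every alternative, 24 genes were always below 0, 4 (Cdt1, Ccnb2, Birc5 and Cdkn1a) were always above 0, and 21 changed sign at least once.

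**Figure D2:**
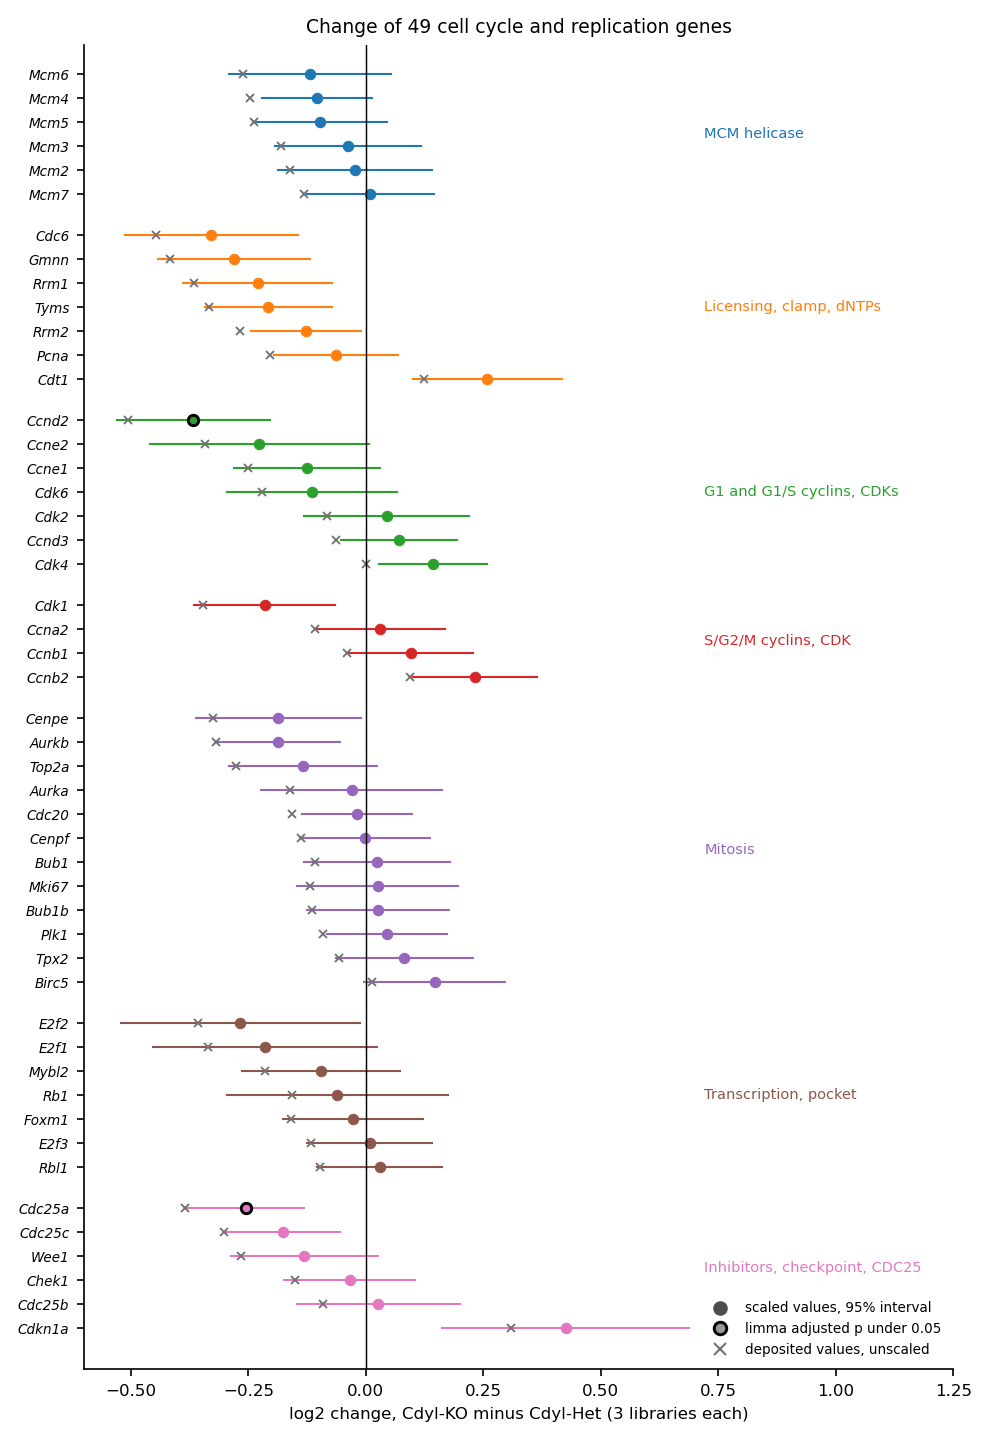
Difference of Cdyl-KO from Cdyl-Het on the log2(scaled RPKM + 1) scale (horizontal axis) for each of the 49 genes, ordered by role, as points with 95% confidence intervals from limma, black rings for an adjusted p under 0.05 and crosses for the deposited values without scaling. Points crowd around 0, with Ccnd2 lowest at -0.37 and Cdkn1a highest at 0.43.

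The 6 subunits of the MCM2-7 helicase, the ring that unwinds DNA at replication forks, had levels of 18.98 (Mcm2) to 53.6 (Mcm6) scaled RPKM. After scaling 0 of 6 passed limma's threshold (0 also at an unadjusted p under 0.05, against 25.4% of all genes). Mcm4 was at 44.0, 46.7 and 44.8 in Cdyl-Het and at 42.9, 40.9 and 42.0 in Cdyl-KO. It was the only subunit whose groups did not overlap, with a difference of -0.10 ± 0.05 (SE, limma adjusted p = 0.243). Mcm6 averaged 49.4 ± 3.88 against 45.4 ± 2.54, Mcm5 27.6 ± 1.46 against 25.7 ± 1.15, and Mcm3 43.3 ± 3.04 against 42.1 ± 1.70. Mcm2 (20.5 ± 0.845 against 20.2 ± 1.69) and Mcm7 (36.7 ± 1.75 against 37.0 ± 1.51) were the closest between the groups, at -0.02 and 0.01. The interval of the Mcm7 difference was -0.13 to 0.14. On the unscaled values Mcm4 and Mcm5 fell (33.3%, against 13.3% of all genes), with limma adjusted p of 0.0217 and 0.0355.

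Among the genes that license origins and supply the fork, most had lower values in Cdyl-KO. Their median difference was -0.21, and the groups were apart in 6 of 7, 5 of them lower in Cdyl-KO and 1 higher (over all genes 31.6% were apart, 14.5% lower and 17.1% higher). After scaling 0 of 7 passed limma's threshold (7.50% of all genes did). At an unadjusted p under 0.05 there were 6 (85.7%, against 25.4% of all genes). On the unscaled values 5 (Cdc6, Gmnn, Rrm1, Rrm2 and Tyms) fell (71.4%, against 13.3% of all genes).

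Cdc6, the ATPase that loads MCM rings on origins (chr11:98907801-98923940), was at 4.42, 5.26 and 4.89 in Cdyl-Het and at 3.82, 3.83 and 3.34 in Cdyl-KO. All 3 Cdyl-KO libraries were below all 3 Cdyl-Het libraries, with a mean 24.6% lower. The difference of -0.33 ± 0.08 (SE) missed the threshold at a limma adjusted p of 0.0504, and leaving out a library gave 0.0497 (without Cdyl-Het replicate 1) to 0.144. Gmnn, which encodes geminin, the inhibitor of CDT1 (chr13:24751845-24761923), was at 15.07, 16.32 and 14.03 in Cdyl-Het and at 12.998, 12.01 and 11.82 in Cdyl-KO. The groups were again apart, and the difference was -0.28 ± 0.07 (limma adjusted p = 0.0547). Cdt1, the partner of CDC6 in MCM loading (chr8:122568015-122573554), was the other way. It was at 10.9, 11.4 and 11.4 in Cdyl-Het and at 13.6, 12.6 and 14.9 in Cdyl-KO, with a mean 21.6% higher and no overlap. Its difference was 0.26 ± 0.07 (limma adjusted p = 0.0637), and 0.12 without scaling (adjusted p = 0.170).

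Of the enzymes of nucleotide supply, 3 were among the 49 genes, and 0 of these 3 passed the threshold after scaling. Rrm1, the large subunit of ribonucleotide reductase, was at 13.58, 15.97 and 13.95 in Cdyl-Het and at 11.9999, 12.24 and 12.31 in Cdyl-KO, a difference of -0.23 (limma adjusted p = 0.0875). Tyms, thymidylate synthase, averaged 6.77 ± 0.369 against 5.72 ± 0.146, a difference of -0.21 (limma adjusted p = 0.0742). Rrm2, the small subunit of the reductase, averaged 23.2 ± 0.748 against 21.1 ± 0.485, a difference of -0.13. In these 3 genes every Cdyl-KO library was below every Cdyl-Het library, while a further list of 18 nucleotide supply genes had 9 above 0 and 9 below, with a median difference of 0.00. Pcna, the sliding clamp, overlapped between the groups at 34.1 ± 1.66 against 32.6 ± 1.07.

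Among cyclins and CDKs of G1 and of the G1/S transition, Ccnd2 fell. Ccnd2 encodes cyclin D2, which with CDK4 or CDK6 starts pocket protein phosphorylation (chr6:127125162-127152193). It was at 19.4, 23.2 and 21.2 in Cdyl-Het and at 16.3, 15.9 and 16.6 in Cdyl-KO. The highest Cdyl-KO library was below the lowest Cdyl-Het library, and the mean was 23.7% lower. The difference was -0.37 ± 0.07 (SE, 95% interval -0.53 to -0.20), the lowest of the 49, with a limma adjusted p of 0.0252. Leaving out any library but Cdyl-Het replicate 1 took the adjusted p over the threshold, with 0.0649 and 0.0860 when Cdyl-Het replicate 2 or 3 was left out, and 0.0776, 0.0771 and 0.0621 when replicate 1, 2 or 3 of Cdyl-KO was. Exons of Ccnd2 overlap those of Gm43126 and 9330179D12Rik in the annotation, and the sources used here do not give the strand setting of the counting.

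The other D-type cyclin of the set and the kinases that cyclin D2 binds did not pass the threshold. Cdk4 was at 63.8, 60.4 and 61.7 in Cdyl-Het and at 69.5, 68.5 and 67.4 in Cdyl-KO, with no overlap and a difference of 0.14 ± 0.05 (limma adjusted p = 0.121) that was -0.00 without scaling. Ccnd3, which encodes cyclin D3, averaged 10.3 ± 0.350 against 10.9 ± 0.359. Cdk6, the rarer of the cyclin D kinases here, averaged 2.85 ± 0.240 against 2.55 ± 0.116 with no overlap. Of the E-type cyclins, which drive S phase entry, Ccne1 was at 6.38 in each Cdyl-Het library and at 6.36, 5.44 and 5.54 in Cdyl-KO, and Ccne2 averaged 4.40 ± 0.495 against 3.62 ± 0.431. The kinase of those cyclins, Cdk2, overlapped between the groups at 6.35 ± 0.518 against 6.58 ± 0.468.

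**Figure D3:**
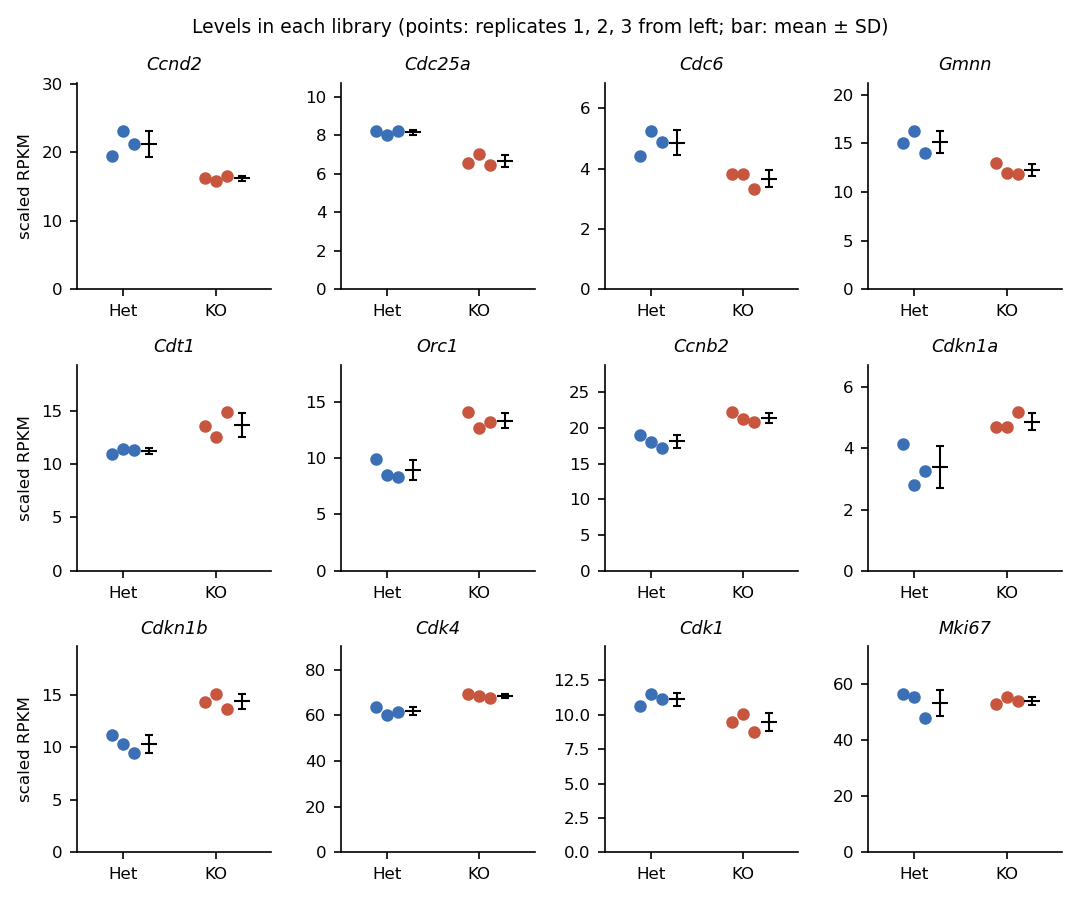
Scaled RPKM (vertical axis) of 12 genes in each library, with replicates 1 to 3 from left to right within Cdyl-Het and Cdyl-KO and bars for the mean ± SD (n = 3). Ccnd2, Cdc25a, Cdc6, Gmnn and Cdk1 lie lower in all 3 Cdyl-KO libraries, Cdt1, Orc1, Ccnb2, Cdkn1a, Cdkn1b and Cdk4 lie higher in all 3 (Cdk4 at -0.00 without scaling), and Mki67 overlaps.

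The 4 genes of the S, G2 and M phase cyclins and their kinase did not move as a block, with a median difference of 0.06. Ccnb2, which encodes a mitotic B-type cyclin (chr9:70407692-70421547), was at 19.0, 18.05 and 17.2 in Cdyl-Het and at 22.2, 21.3 and 20.8 in Cdyl-KO. All 3 Cdyl-KO libraries were above all 3 Cdyl-Het libraries, by 18.3% in the mean. The difference was 0.23 ± 0.06 (limma adjusted p = 0.0531), and 0.09 without scaling (adjusted p = 0.265). Cdk1, the kinase that cyclin B binds, was apart in the other direction, at 10.65, 11.53 and 11.16 in Cdyl-Het and at 9.51, 10.07 and 8.77 in Cdyl-KO. Its difference was -0.21 ± 0.06 (limma adjusted p = 0.0898), and it fell on the unscaled values (adjusted p = 0.0251). Of these 4, 0 passed limma's threshold (2 at an unadjusted p under 0.05). Ccnb1 averaged 14.1 ± 0.535 against 15.1 ± 0.687 and Ccna2, the A-type cyclin of S phase and G2, 18.1 ± 1.19 against 18.5 ± 0.296, both with overlap.

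Markers and executors of mitosis had a median difference of 0.01, and 0 of 12 passed limma's threshold. At an unadjusted p under 0.05 there were 2 (16.7%, against 25.4% of all genes). Mki67, the source of the Ki-67 proliferation antigen, was at 56.5, 55.3 and 47.7 in Cdyl-Het and at 52.7, 55.4 and 53.8 in Cdyl-KO. The groups overlapped, and the difference of 0.02 had a 95% interval of -0.15 to 0.20. Top2a, the topoisomerase that untangles sister chromatids, averaged 40.6 ± 3.11 against 36.9 ± 1.26, a difference of -0.13 (limma adjusted p = 0.266). Plk1, a kinase of mitotic entry and spindle assembly, averaged 15.6 ± 0.653 against 16.1 ± 0.569. Bub1 (8.74 ± 0.549 against 8.90 ± 0.512) and Bub1b (21.6 ± 1.62 against 21.9993 ± 0.602), both of the spindle checkpoint, overlapped. So did Cdc20, the activator of the anaphase-promoting complex (18.1 ± 0.484 against 17.9 ± 0.512), and the kinetochore gene Cenpf (14.9 ± 0.782 against 14.9 ± 0.620).

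Within the mitotic group, the values of Aurkb and Birc5, which act in a single complex, lay in opposite directions. Aurkb, the kinase of the chromosomal passenger complex, was at 10.7, 9.73 and 9.68 in Cdyl-Het and at 8.82, 8.65 and 8.60 in Cdyl-KO. Its groups did not overlap, and the difference was -0.19 ± 0.06 (limma adjusted p = 0.0919). Birc5, which encodes survivin of the same complex, was at 9.87, 9.98 and 8.93 in Cdyl-Het and at 11.1, 10.95 and 10.1 in Cdyl-KO, also without overlap, with a difference of 0.15 (limma adjusted p = 0.205) that was 0.01 without scaling. Tpx2, which activates Aurora A at the spindle, averaged 24.5 ± 1.77 against 25.97 ± 0.135, without overlap, a difference of 0.08 that was -0.06 without scaling. Aurora A itself (Aurka) overlapped at 9.27 ± 1.06 against 9.02 ± 0.442. Cenpe, a kinetochore motor, averaged 18.9 ± 1.79 against 16.5 ± 0.568, a difference of -0.19 that did not pass after scaling (limma adjusted p = 0.175) and did without it (adjusted p = 0.0298).

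Transcription factors and pocket proteins had the lowest median level of the roles, and 0 of 7 passed limma's threshold with or without scaling. After scaling 1 had an unadjusted p under 0.05 (14.3%, against 25.4% of all genes). E2f2, an activator E2F, was at 1.98, 1.68 and 1.88 in Cdyl-Het and at 1.15, 1.37 and 1.59 in Cdyl-KO. It was the only gene of the 7 whose groups did not overlap, with a difference of -0.27 ± 0.11 (limma adjusted p = 0.179). E2f1 averaged 5.30 ± 0.815 against 4.40 ± 0.299, a difference of -0.22, and E2f3 6.03 ± 0.279 against 6.07 ± 0.212. The pocket protein genes overlapped, Rb1 at 2.06 ± 0.203 against 1.93 ± 0.249 and Rbl1 at 6.43 ± 0.316 against 6.58 ± 0.202. Mybl2, which encodes B-MYB, averaged 4.34 ± 0.0537 against 4.01 ± 0.394, and Foxm1, its partner in mitotic gene activation, 9.58 ± 0.723 against 9.37 ± 0.165.

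Of the inhibitors, checkpoint kinases and CDC25 phosphatases, Cdc25a fell. The CDC25 phosphatases remove inhibitory phosphates from CDKs, and CDC25A acts at the entry to S phase and later. Cdc25a (chr9:109875579-109893895) was at 8.24, 8.02 and 8.25 in Cdyl-Het and at 6.56, 7.02 and 6.46 in Cdyl-KO. The groups were far apart beside their spread, with a mean 18.2% lower. The difference was -0.26 ± 0.05 (SE, 95% interval -0.38 to -0.13) with a limma adjusted p of 0.0332. Its promoter, printed above, held an E2F word. Such words were found for 15 of the 38 genes with a window, including Cdt1, which lay higher in Cdyl-KO. A link between the word and the fall was not tested. The call was lost when any 1 of the 6 libraries was left out, with adjusted p from 0.0578 to 0.107, while the difference kept between -0.24 and -0.29.

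Cdc25c, a phosphatase of mitotic entry, was at 6.84, 6.78 and 6.94 in Cdyl-Het and at 5.88, 6.19 and 5.78 in Cdyl-KO, a difference of -0.18 ± 0.05 (limma adjusted p = 0.0854) without overlap. Cdc25b, in contrast, overlapped at 4.14 ± 0.0837 against 4.24 ± 0.421. Cdkn1a, which encodes the p21 inhibitor of CDKs (chr17:29090976-29100727), had the highest difference of the 49 genes. It was at 4.13, 2.80 and 3.24 in Cdyl-Het and at 4.70, 4.69 and 5.17 in Cdyl-KO, with a mean 43.2% higher. The groups did not overlap, yet the spread within Cdyl-Het was wide, and the difference of 0.43 ± 0.11 had a limma adjusted p of 0.0651. Without Cdyl-Het replicate 1, the highest library of its group, that p was 0.0220, and without each of the others it missed the threshold, at up to 0.178. Wee1, the kinase that CDC25 opposes, averaged 11.6 ± 0.921 against 10.5 ± 0.336, and Chek1, the checkpoint kinase that targets CDC25A, 3.95 ± 0.0953 against 3.84 ± 0.176, both with overlap.

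The roles were also summarised by library. For each library, the median log2 deviation of a role's genes from their own means was taken, on scaled RPKM without a pseudocount. These medians move with the scaling between libraries. For the 7 licensing, clamp and nucleotide genes it was 0.03, 0.11 and 0.07 in Cdyl-Het, against -0.07, -0.12 and -0.09 in Cdyl-KO, so the groups did not overlap. The 7 transcription factor and pocket genes were at 0.07, 0.05 and 0.08 against -0.04, -0.09 and -0.02, and the 6 genes of inhibitors, checkpoint and CDC25 were also apart. Over all 49 genes the median was 0.03, 0.07 and -0.01 in Cdyl-Het, against -0.03, -0.02 and -0.04 in Cdyl-KO. The groups did not overlap, but the gap was narrow (-0.0144 against -0.0244 at its closest) and rests on the scaling. Medians of the MCM genes, the G1 cyclin and CDK genes, the S, G2 and M cyclin genes and the mitotic genes overlapped. The mitotic median was 0.07, 0.02 and -0.10 in Cdyl-Het, against -0.03, 0.04 and -0.03 in Cdyl-KO. The gap between the 13 replication genes and the 16 genes of the S, G2 and M cyclins and mitosis does not depend on scaling between libraries. It was -0.04, 0.08 and 0.14 in Cdyl-Het, against -0.04, -0.11 and -0.05 in Cdyl-KO, and the groups overlapped through Cdyl-Het replicate 1. Among the further lists given below, polymerase and fork genes and kinetochore genes had similar median differences (-0.115 and -0.117).

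**Figure D4:**
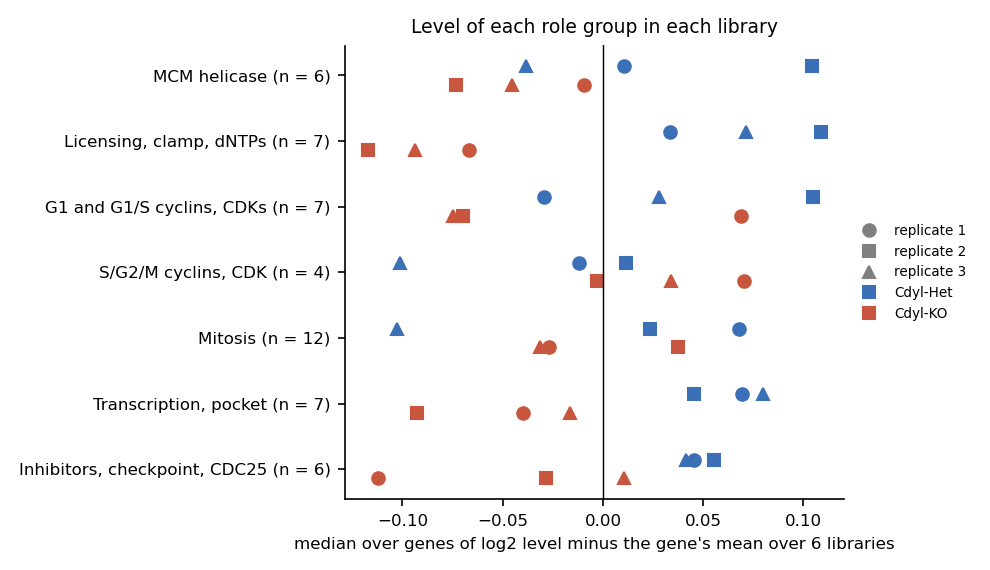
Median log2 deviation of scaled RPKM from each gene's own mean (horizontal axis) for the genes of each role (rows). The 3 Cdyl-Het libraries are blue and the 3 Cdyl-KO libraries red, with a symbol for each replicate. The licensing, clamp and nucleotide genes lie above 0 in every Cdyl-Het library and below 0 in every Cdyl-KO library, while the mitotic genes overlap.

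Level alone moved with the difference across all genes, and the values are given beside the result. With all genes divided by level into 4 equal classes, the median difference was -0.09 in the lowest class and 0.07 in the highest. The 24 of the 49 genes in the highest class had a median of -0.02, with 14 below 0, and the 15 in the third had a median of -0.03 (0.02 for all genes). The 7 in the second had a median of -0.10 (-0.03 for all genes) and the 3 in the lowest -0.11.

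Another 255 genes of the cell cycle were listed by role, and 250 of them were in the tables. Of these 8 fell (3.20%) and 5 rose, against 2.83% and 4.67% of all genes, with a median difference of -0.04. The groups were apart in 59 lower genes (23.6%, against 14.5% of all genes) and in 27 higher ones (10.8%, against 17.1%). On the unscaled values 62 fell (24.8%, against 13.3% of all genes) and 4 rose (2.60% of all genes did). The list of polymerases and fork proteins had 3 falls among 38 genes (7.89%, against 2.83% of all genes). The list of kinetochore and checkpoint genes had 2 among 45 (4.44%). Their median differences were close, at -0.115 and -0.117. The groups were apart and lower in 34.2% and 28.9% of their genes, and apart and higher in 5.26% and 4.44%. The list of spindle motors, condensin and cytokinesis (39 genes) and the origin list both had a median of -0.056. These mitotic lists therefore lay about as low as the fork and origin lists. The origin list had 1 rise among 20, and the lists of nucleotide supply (18 genes) and of p53 targets and regulators (16 genes) had 0 in either direction by limma after scaling (4 and 2 at an unadjusted p under 0.05), with 4 and 2 falls without it.

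In G1 control, Ccnd1, which encodes cyclin D1, fell with Ccnd2, from 13.8 ± 1.13 to 9.72 ± 0.484, a difference of -0.46 ± 0.07 (limma adjusted p = 0.0138). Cdkn1b, the source of the p27 inhibitor of cyclin E and CDK2, rose from 10.3 ± 0.848 to 14.4 ± 0.734, a difference of 0.44 ± 0.07 (limma adjusted p = 0.0157). For Ccnd1 the call was lost on leaving out Cdyl-Het replicate 3 (0.0529) or the first Cdyl-KO replicate (0.0515). That of Cdkn1b was lost on leaving out replicate 2 (0.0582) or 3 (0.0544) of Cdyl-Het, or replicate 1 (0.0562) or 2 (0.0537) of Cdyl-KO. Cdkn1c, which encodes the p57 inhibitor, was the most abundant of the CDK inhibitors named here at 219 ± 15.9 against 255 ± 18.8, and its difference of 0.22 did not pass.

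Orc1, the large subunit of the origin recognition complex that CDC6 joins, rose. It was at 9.92, 8.48 and 8.32 in Cdyl-Het and at 14.1, 12.7 and 13.2 in Cdyl-KO. The difference was 0.53 ± 0.08 (limma adjusted p = 0.0114), and it stayed called without any 1 library, with adjusted p up to 0.0495. At the fork, Pole, the catalytic subunit of the leading-strand polymerase, fell from 8.09 ± 0.438 to 6.51 ± 0.380 (-0.28, limma adjusted p = 0.0458). Rpa3, a subunit of the single-strand binding complex, fell from 7.67 ± 0.424 to 5.50 ± 0.678 (-0.42, adjusted p = 0.0341), and Asf1b, a histone chaperone, from 3.17 ± 0.145 to 2.09 ± 0.268 (-0.44, adjusted p = 0.0305). Each of these 3 calls was lost when any 1 of the 6 libraries was left out, and that of Pole without the trend (0.0604). The calls of Pole and Asf1b were also lost with a replicate block.

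Among mitotic genes outside the 49, Ska1, which ties kinetochores to microtubules, fell from 4.12 ± 0.143 to 2.56 ± 0.334 (-0.53, limma adjusted p = 0.0162). Zwilch, of the complex that recruits checkpoint proteins to kinetochores, fell from 7.29 ± 0.237 to 5.55 ± 0.418 (-0.34, adjusted p = 0.0252). Mastl, the Greatwall kinase, fell from 2.999 ± 0.220 to 2.05 ± 0.208 (-0.39, adjusted p = 0.0392). Ube2s, the chain-extending E2 of the anaphase-promoting complex, rose from 10.1 ± 0.256 to 13.3 ± 0.657 (0.37, adjusted p = 0.0133). The calls of Ska1 and Ube2s were lost without Cdyl-Het replicate 2 (0.0572 and 0.0517) and without Cdyl-Het replicate 3 (0.0715 and 0.0549). That of Zwilch was lost without any library but Cdyl-KO replicate 2, and that of Mastl without any 1 library. With a replicate block, the calls of Ska1, Ube2s, Zwilch and Mastl were all lost.

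Of other factors in the E2F, MYB and MYC families, Mybl1, which encodes A-MYB, had the largest difference of the 250 genes. It fell from 4.39 ± 1.32 to 1.197 ± 0.131, by 1.26 on the log2 scale (limma adjusted p = 0.0118), and the call was lost without Cdyl-Het replicate 3 (0.0576). Mycn, a driver of growth and division, rose from 18.9 ± 0.302 to 24.5 ± 1.72 (0.35, adjusted p = 0.0194). Its call was lost on leaving out replicate 2 (0.0659) or 3 (0.0741) of Cdyl-Het or replicate 1 of Cdyl-KO (0.0506). E2f5, a repressor E2F, rose from 14.6 ± 0.597 to 17.9 ± 1.07 (0.28, adjusted p = 0.0407). Its call was lost without any 1 library, without scaling (0.132), with cyclic loess (0.0696) and without the trend (0.0585). The calls of Mycn and E2f5 were also lost with a replicate block.

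**Figure D5:**
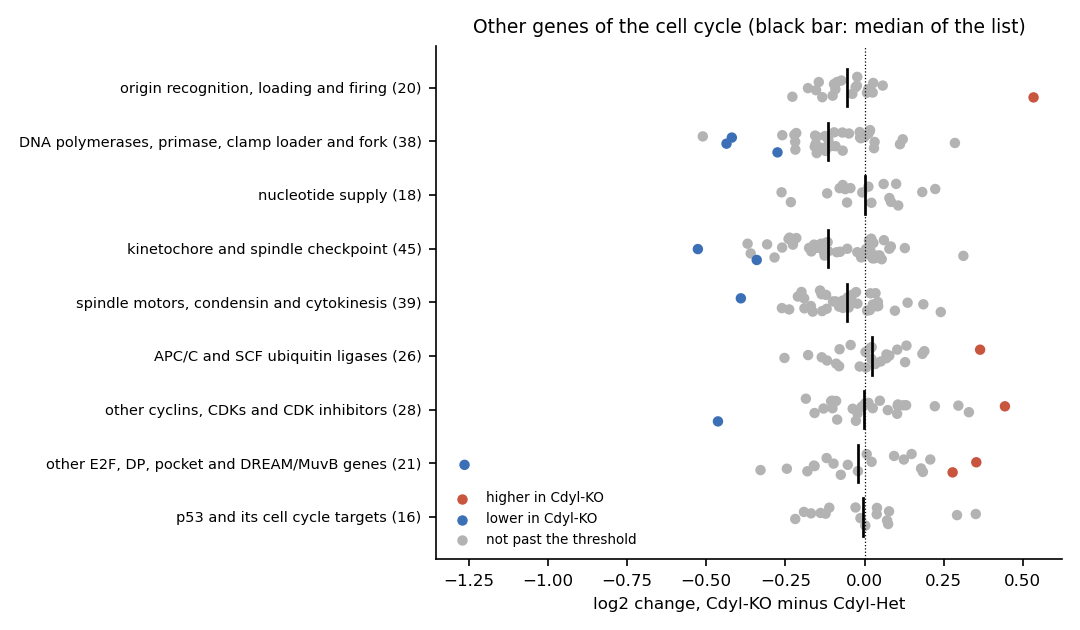
Difference of Cdyl-KO from Cdyl-Het on the log2(scaled RPKM + 1) scale (horizontal axis) for 250 further cell cycle genes, by list (rows, number of genes in brackets), with coloured points for genes past a limma adjusted p of 0.05, grey for the rest and a black bar for the list's median. Called genes lie on both sides of 0, with 8 lower and 5 higher, and Mybl1 is the farthest at -1.26.

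Markers of other cells that the sort could hold were read in the same libraries. The 8 gonadal somatic markers were all present, at a summed 331 to 380 scaled RPKM in Cdyl-Het and 366 to 406 in Cdyl-KO. Emx2, Nr0b1 and Lhx9 rose (3 of 8, 37.5%, against 4.67% of all genes), and 6 of the 8 differences were above 0. Nr5a1, another of the 8, averaged 85.8 ± 7.76 against 77.7 ± 7.31, a difference of -0.14 (limma adjusted p = 0.383). Endothelial markers (8 of 12 in the tables) summed to 33.1 to 36.3 in Cdyl-Het and to 21.7 to 23.95 in Cdyl-KO. Among these 8, 4 fell (2.83% of all genes did), and all 8 differences were below 0, with a median of -0.49. The groups were apart and lower in 7 of the 8 (14.5% of all genes were). Red cell markers (6 of 12, globins) summed to 51.5 to 261 and to 55.1 to 162, with all 6 differences below 0. Macrophage markers (2 of 12) summed to 3.46 to 4.40 and to 3.21 to 5.13. Germ cell markers (3 of 15) summed to 5.08 to 7.81 and to 5.29 to 5.81, and the defining ones Ddx4, Dazl and Dppa3 are not analysed here. Mesonephric markers (8 of 10) summed to 16.3 to 23.6 and to 18.8 to 23.3. Of these 1 (Pax8) rose (12.5%, against 4.67% of all genes), and 6 of the 8 differences were below 0. The part of these cells in the differences of the cell cycle genes was not tested.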

How the data were processed

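Total RNA of hCD271-positive cells was read from stranded libraries made with a low-input kit (SMARTer, Pico), per the labels' protocols. For each library the authors deposited a table of 11736 gene symbols with 1 value each, taken as RPKM because they carried no header, were not whole and, among low genes, came in steps that depended on gene length. Per the submitters' processing notes, STAR, Subread featureCounts 1.6.4 and mm10 were used, and the sources used here do not give the annotation, strand setting or filter. Each listed gene had a deposited mean of at least 1.005 in a group, and lower genes are not analysed here.

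Values were divided by a trimmed mean of log ratios to the first library (30% of ratios and 5% of levels trimmed at each end). After a pseudocount of 1 and the log2, limma 3.58.1 (R 4.3.3) was fitted on group alone with an expression trend. Its p-values were Benjamini-Hochberg adjusted across all genes, and 0.05 was the threshold. Of the low values, 84.9% to 87.0% were whole reads (tolerance 0.02, up to 200 reads), which gave the implied depths. Positions are from GENCODE M21, and 6 listed genes were matched by a RefSeq synonym. The exons of 16 of the 49 genes overlap another gene (Ccnd2, Cdk4, Cdkn1a and Cdc25c among those described), and 5 (Pcna, Tyms, Ccnd3, Ccnb1 and Ccnb2) have a named pseudogene, so their reads may be shared.

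The genes and lists were chosen with earlier results of these data known. Of the further genes, those past the threshold were named, up to 4 in each list with the smallest p. The procedure was tested on simulated data. Every difference planted there was larger than those of Ccnd2 and Cdc25a, so that test does not speak to calls of their size. Alternatives were the unscaled values, another scaling by median of ratios, cyclic loess, a pseudocount of 0.1, a mean of at least 5, no trend, a replicate block and leaving out each library.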

Additional observations from a re-analysis of the deposited data

How the results depend on the processing

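Of the 49 cell cycle genes and the 13 further genes named as called, those past the threshold kept their sign under each alternative that tested them. The 880 genes called in all became 1863 without scaling and 337 with a replicate block, and 253 to 647 when a library was left out. Among the 49 cell cycle genes, the 2 calls (4.08%, against 7.50% of all genes) became 16 without scaling (32.7%, against 15.9%), all lower. With median of ratios scaling there were 4 (8.16%, against 7.67% of all genes), all lower (3.02% of all genes were). Cyclic loess gave 5 (10.2%, against 8.32% of all genes), all lower (3.68% of all genes were). The replicate block gave 0, against 2.87% of all genes. With a mean of at least 5 there were 5 calls among the 39 genes tested, 3 lower and 2 higher (12.8%, against 10.4% of all 6666 tested). Leaving out a library gave 0 to 3 calls (0 to 2 lower and 0 to 1 higher), against 2.16% to 5.51% of all genes. Of the 250 further pathway genes, the 13 called became 66 without scaling, 5 with the block and 1 to 8 without a library. The 5 called with the block were Orc1, Ccnd1, Cdkn1b, Rpa3 and Mybl1. Beside the 14 cell cycle genes added without scaling, the genes added by an alternative were Cdc6 (0.0497) and Cdkn1a (0.0220) without Cdyl-Het replicate 1, Cdc6 (0.0482) and Gmnn (0.0494) by median of ratios, Gmnn (0.0182), Mcm4 (0.0308) and Rrm1 (0.0366) by loess, and Gmnn (0.0419), Ccnb2 (0.0444) and Cdt1 (0.0499) with a mean of at least 5 (limma adjusted p). Ccnd2 ranged from 0.00957 to 0.0860 over all alternatives and Cdc25a from 0.01295 to 0.110, and both were lost under the block (0.0795 and 0.110). Same-numbered libraries did not deviate together (correlations of -0.05, -0.27 and -0.05). No library correlated best with its own number, so the numbers were not taken as pairs. The cause of these changes was not tested.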

Other observations

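Ratios of levels within a library do not depend on scaling between libraries. The pairs given here were chosen after their values were seen and were not tested. The level of Ccnd2 over that of Cdk4, both per length, was 0.344 ± 0.0398 in Cdyl-Het and 0.237 ± 0.0075 in Cdyl-KO (SD, n = 3), and Ccnd2 over Ccnd3 was 2.06 ± 0.146 and 1.49 ± 0.0701. In licensing, Cdc6 over Cdt1 was 0.432 ± 0.0286 in Cdyl-Het and 0.270 ± 0.0412 in Cdyl-KO, and Gmnn over Cdt1 was 1.35 ± 0.101 and 0.904 ± 0.0935, with Gmnn above Cdt1 in each Cdyl-Het library and below it in each Cdyl-KO library. In mitosis, Cdk1 over Ccnb1 was 0.792 ± 0.0558 and 0.628 ± 0.0676, and Aurkb over Birc5 was 1.05 ± 0.0634 and 0.812 ± 0.0332. For Cdc25a over Cdc25b the ratios were 1.98 ± 0.0322 and 1.59 ± 0.166. None of these 7 ratios overlapped between the groups. In Ccnd2 over Cdk4, Cdc6 over Cdt1, Gmnn over Cdt1 and Aurkb over Birc5, both genes were already apart in opposite directions. Those ratios could therefore not overlap, and they add nothing to the values of the single genes. Ccne2 over Ccne1 and Rrm1 over Rrm2, by contrast, did overlap, at 0.690 ± 0.0777 against 0.627 ± 0.0660 and at 0.625 ± 0.0429 against 0.577 ± 0.0208.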
